A study of Mus musculus with 6 samples.

Results

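CXC chemokines are small secreted proteins that attract leukocytes, and 10 of them were examined in sorted stromal cells of the inflamed mouse colon: *Cxcl1*, *Cxcl2*, *Cxcl3*, *Cxcl5*, *Cxcl9*, *Cxcl10*, *Cxcl12*, *Cxcl13*, *Cxcl14* and *Cxcl16*. They were taken from the tag counts by gene symbol and are 10 of 20327 symbols. A gene was tested when 3 or more of the 6 libraries had 10 tags or more, and all 10 members were among the 9334 tested genes. *Cxcl2*, *Cxcl3*, *Cxcl5*, *Cxcl13* and *Cxcl14* rose in the EGFP-positive cells, by 2.31-fold (*Cxcl13*) to 10.8-fold (*Cxcl5*). For *Cxcl13* the groups overlapped, and its call was lost in some settings, DESeq2 among them. *Cxcl1*, *Cxcl12* and *Cxcl16* were above the EGFP-negative cells in every library by smaller folds, and *Cxcl9* and *Cxcl10* had negative log2 fold changes.

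Chemokines act through G-protein-coupled receptors on the cells they attract, and heparan sulfate on cell surfaces and matrix holds them near their source. *Cxcl1*, *Cxcl2*, *Cxcl3* and *Cxcl5* encode ligands with a glutamate-leucine-arginine (ELR) motif, which act on Cxcr2 and draw neutrophils, whereas the interferon-inducible ligands Cxcl9 and Cxcl10 act on Cxcr3 of T cells and NK cells. In the inflamed intestine, fibroblasts are a known source of these proteins beside epithelial cells and macrophages.

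Mice of the C57BL/6 strain carried *Il11-Egfp*, a bacterial artificial chromosome transgene in which the *Il11* promoter drives *Egfp*, and were 9 to 15 weeks old when treated. Both groups came from such mice after 1.5% dextran sodium sulfate (DSS), which injures the colonic epithelium, in drinking water for 5 days. On day 7, colon cells negative for Ter119, CD45, CD31, EpCAM and the dead-cell dye DAPI were sorted into an EGFP-negative and an EGFP-positive group (n = 3 libraries each, with 3 mice named in the methods), in order to describe the cells that express IL-11 in colitis. EGFP marks activity of the transgene's promoter, and the EGFP-negative group is everything else in the gate, of whatever cell type. The labels do not tie a library to a mouse, so that p-values measure the spread between these libraries, and no library from untreated mice was analysed here.

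RNA was read as tags from the 5′ side of transcripts, and each library held between 1022851 and 1169817 tags. Levels are given as normalized CPM, which are CPM after TMM scaling, and a count of 3 tags, taken as the floor, corresponds to 2.56 to 2.93 CPM before scaling. Floors cover counting error only. A gene was called when its Benjamini-Hochberg adjusted p in edgeR's quasi-likelihood test was under 0.05 and the groups differed by more than 2-fold.

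The labels were checked on *Il11* itself, which had 28, 51 and 89 tags in EGFP-negative replicates 1, 2 and 3 and 1357, 732 and 2658 tags in the EGFP-positive replicates. Its log2 fold change was 4.98 (SE 0.393, adjusted p = 1.01e-07), and the EGFP-negative libraries were low without being at 0. Fibroblast markers were abundant in both groups, with *Dcn* the most abundant, and all 10 of them were tested. Their summed level was 22828, 22909 and 25273 normalized CPM in the EGFP-negative libraries and 43103, 34860 and 30929 in the EGFP-positive libraries. *Col3a1* (log2 fold change 1.04) and *Pdpn* (1.06) were called higher, and neither call was kept without EGFP-negative replicate 1 (0.83 and 0.94), with scaling by library size only (0.96 and 0.97) nor, for *Pdpn*, without EGFP-positive replicate 1 (0.97). The markers did not all go up, since *Lum* was lower in every EGFP-positive library with a fold change under 2 (-0.64, SE 0.201, adjusted p = 0.0378; 0.186 without EGFP-negative replicate 3).

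All 10 pericyte and smooth muscle markers were lower in the EGFP-positive group, with a median log2 fold change of -3.71. Their summed level was 4473, 4753 and 5368 normalized CPM in the EGFP-negative libraries and 309, 345 and 533 in the EGFP-positive libraries, and *Rgs5* was the most abundant (log2 fold change -3.11). By these sums, the pericyte and smooth muscle genes were a part of the EGFP-negative group that the EGFP-positive group held at a low level. *Cnn1* (0, 1 and 5 tags in the EGFP-positive libraries) and *Notch3* (4, 0 and 7) passed the filter through the EGFP-negative group only. *Mcam* (7, 8 and 10) reached 10 tags in EGFP-positive replicate 3 alone within that group. The count of 10 and the median include these genes and are given as description, while the statement on the sums does not rest on them.

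Mesothelial markers summed to 13.4, 4.71 and 15.6 normalized CPM in the EGFP-negative libraries, with *Wt1* the most abundant, and in the EGFP-positive libraries they were at 0 apart from 2 *Wt1* tags in replicate 3. The endothelial markers summed to 43.0, 27.3 and 37.8 normalized CPM in the EGFP-negative libraries and to 18.0, 8.12 and 6.68 in the EGFP-positive libraries. *Tek* was the most abundant and the only one tested (called lower, log2 fold change -1.59, SE 0.392, adjusted p = 0.00850). With 33, 24 and 42 tags in the EGFP-negative and 17, 7 and 5 in the EGFP-positive libraries, it met the filter only because of the EGFP-negative group, where it is high. *Pecam1*, which encodes the CD31 of the gate, had 1 tag in EGFP-negative replicate 2 and 0 in the other libraries.

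Leukocytes, the other main source of chemokines, were sparse by their markers. The leukocyte markers with a row summed to 21.96, 22.6 and 18.1 normalized CPM in the EGFP-negative libraries and to 42.4, 19.3 and 17.2 in the EGFP-positive libraries. *Cd68* was the most abundant over all libraries with 3 to 10 tags, *Ptprc*, which encodes the CD45 of the gate, had 0 to 7 tags, and none of these genes passed the filter. *S100a8*, a neutrophil gene, had 2, 4 and 2 tags in the EGFP-negative libraries and 13, 1 and 12 in the EGFP-positive libraries, and *S100a9* had 1, 0 and 4 against 9, 4 and 0, so that both overlapped between the groups. Epithelial markers had at most 8 tags each (*Krt19*, EGFP-negative replicate 3), and they summed to 3.82, 1.88 and 18.9 normalized CPM in the EGFP-negative libraries and to 2.12, 3.05 and 4.77 in the EGFP-positive libraries, with *Krt8* the most abundant over all libraries. Erythroid markers, all of them hemoglobin genes apart from 2 tags and with *Hbb-bs* the most abundant, varied within the EGFP-negative group, from 0 in replicate 2 to 90.7 in replicate 1 and 305 in replicate 3, against 19.1, 2.03 and 19.1 in the EGFP-positive libraries. The part of all these cell types in the results below was not tested, and fewer cells of a type and less RNA per cell cannot be told apart in such bulk libraries.

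Of the 10 CXC chemokines, 5 were called higher in the EGFP-positive group, where 3.44% of all tested genes were, and 0 were called lower, where 6.37% of all tested genes were. By edgeR at an unadjusted p under 0.05, 8 were higher (12.2% of tested genes) and 1 was lower (14.5% of tested genes), and DESeq2 called 4 higher and 0 lower. The EGFP-positive libraries lay all above the EGFP-negative libraries for 7 members (14.5% of tested genes) and all below them for 0 (16.7% of tested genes), and the groups overlapped for 3. Their median log2 fold change was 0.99, against -0.01 over all tested genes. Together the members took 0.383%, 0.439% and 0.399% of the tags in the EGFP-negative libraries and 0.755%, 0.889% and 0.750% in the EGFP-positive libraries, so that each EGFP-positive library spent a larger share of its tags on CXC chemokines than any EGFP-negative library.

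**Figure D1:**
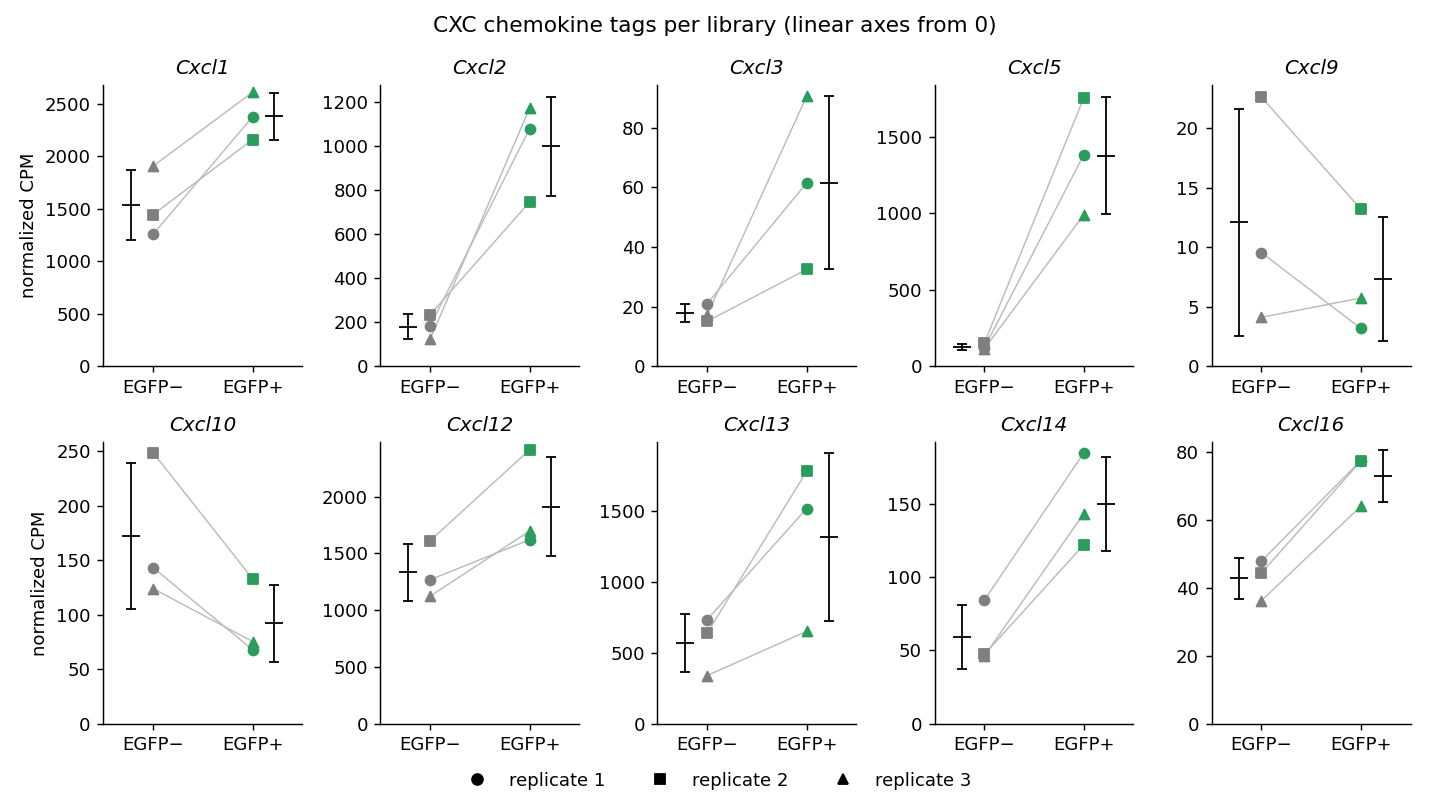
Normalized CPM (linear axes from 0) of the 10 CXC chemokines in EGFP-negative (grey) and EGFP-positive (green) libraries; symbols mark replicate numbers, thin lines join libraries with the same number, and the black bars beside the points are the mean ± SD (n = 3). The groups overlap for *Cxcl9*, *Cxcl10* and *Cxcl13* and not for the other 7 genes.

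The ELR-positive ligands were the neutrophil attractants of the list, and 3 of 4 were called higher (3.44% of all tested genes). *Cxcl1* had 1317, 1534 and 2322 tags in EGFP-negative replicates 1, 2 and 3 and 2242, 2127 and 2738 tags in the EGFP-positive replicates. After scaling, the EGFP-positive libraries (2376, 2160 and 2611 normalized CPM) were all above the EGFP-negative libraries (1257, 1445 and 1907), and EGFP-negative replicate 3 came closest. The level went from 1536 ± 334 to 2382 ± 226 normalized CPM (SD, n = 3), and the log2 fold change of 0.63 (SE 0.185) had an adjusted p of 0.0248 (0.181 without EGFP-negative replicate 1) but was under the fold threshold, so that *Cxcl1* was not called.

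*Cxcl2*, which encodes a close relative of Cxcl1, had 192, 249 and 149 tags in the EGFP-negative libraries and 1020, 736 and 1231 tags in the EGFP-positive libraries. The lowest EGFP-positive library, replicate 2, was still far above the highest EGFP-negative library, which was also replicate 2. Its mean level was 180 ± 56.2 normalized CPM in EGFP-negative and 1001 ± 224 in EGFP-positive cells (± SD, n = 3), and it rose by 2.48 on the log2 scale (SE 0.230) with an adjusted p of 4.98e-07, which is 5.57-fold.

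*Cxcl3* was the least abundant ELR-positive ligand, with 22, 16 and 21 tags in the EGFP-negative libraries and 58, 32 and 95 tags in the EGFP-positive libraries. Within the EGFP-positive group replicate 3 was high and replicate 2 low, as for *Cxcl2*, and the groups did not overlap. Its mean level was 17.8 ± 3.0 normalized CPM in EGFP-negative and 61.5 ± 29.1 in EGFP-positive cells (± SD, n = 3), and it rose by 1.79 on the log2 scale (SE 0.326) with an adjusted p of 0.000696. *Cxcl3* and *Cxcl2* share sequence at their 5′ ends. Of the 50-base windows in the first 300 bases of their transcripts, 61 of 251 for *Cxcl3* and 61 of 253 for *Cxcl2* were identical between both genes, and no other member shared such a window with another gene there. How tags that match more than 1 gene were counted is not given in the sources used here, so that the split of tags between *Cxcl2* and *Cxcl3* is uncertain.

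*Cxcl5*, which encodes an ELR-positive ligand known mainly from epithelial and stromal cells, had 125, 158 and 138 tags in the EGFP-negative libraries and 1303, 1725 and 1037 tags in the EGFP-positive libraries. The EGFP-negative libraries were close to each other, and the order within the EGFP-positive group was the reverse of that for *Cxcl2* and *Cxcl3*, with replicate 2 the highest and replicate 3 the lowest. Its log2 fold change of 3.43 (SE 0.221, adjusted p = 1.04e-08) was the largest among the members and rank 18 among all tested genes. Between libraries with the same number the log2 difference was 3.53, 3.56 and 3.13 for *Cxcl5*, against 2.56, 1.67 and 3.26 for *Cxcl2* and 0.92, 0.58 and 0.45 for *Cxcl1*.

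The mix of ELR-positive ligands was described by tag ratios. The EGFP-negative libraries held 0.0949, 0.103 and 0.0594 *Cxcl5* tags per *Cxcl1* tag, and the EGFP-positive libraries held 0.581, 0.811 and 0.379. For *Cxcl2* the ratio to *Cxcl1* was 0.146, 0.162 and 0.0642 in the EGFP-negative libraries and 0.455, 0.346 and 0.450 in the EGFP-positive libraries. Neither ratio overlapped between the groups, whereas that of *Cxcl3* to *Cxcl1* did (0.0167, 0.0104 and 0.00904 against 0.0259, 0.0150 and 0.0347) but was higher in the EGFP-positive library of each number. These ratios were chosen after the values were seen and were given no test. Summed over the 4 ligands, the level was 1581, 1844 and 2160 normalized CPM in the EGFP-negative libraries and 4900, 4691 and 4865 in the EGFP-positive libraries, which were close to each other although *Cxcl2* and *Cxcl5* ran in opposite orders among them. The 4 ligands made up 46.2 ± 8.80% of the members' tags in the EGFP-negative group and 58.1 ± 7.03% in the EGFP-positive group (SD, n = 3), and these shares overlapped between the groups, while each EGFP-positive library was above the EGFP-negative library with the same number (58.5% against 40.9%, 50.8% against 41.4% and 64.8% against 56.3%).

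The Cxcr3 ligands *Cxcl9* and *Cxcl10*, both induced by interferons, were the members with a negative log2 fold change. *Cxcl10* had 150, 264 and 151 tags in the EGFP-negative libraries and 64, 131 and 79 tags in the EGFP-positive libraries. Replicate 2 was the highest in both groups, and after scaling EGFP-positive replicate 2 (133 normalized CPM) lay above EGFP-negative replicate 3 (124), so that the groups overlapped. Between libraries with the same number, each EGFP-positive library was lower, by log2 differences of -1.08, -0.90 and -0.72. Mean levels were 172 ± 67.2 and 92.1 ± 35.7 normalized CPM (± SD, n = 3), and the log2 fold change of -0.90 (SE 0.263) had an adjusted p of 0.0250 but was under the fold threshold. *Cxcl10* was called lower without EGFP-negative replicate 1 (-1.03), without EGFP-negative replicate 3 (-1.11) or without EGFP-positive replicate 2 (-1.25). The change was weaker without EGFP-negative replicate 2 (-0.55, adjusted p = 0.223), EGFP-positive replicate 1 (-0.71, adjusted p = 0.125) or EGFP-positive replicate 3 (-0.77, adjusted p = 0.0858), and the adjusted p over all settings ranged from 2.56e-05 to 0.223.

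*Cxcl9* had 10, 24 and 5 tags in the EGFP-negative libraries and 3, 13 and 6 tags in the EGFP-positive libraries. As for *Cxcl10*, replicate 2 was the highest in both groups, and the groups overlapped. Its log2 fold change of -0.68 (SE 0.578, adjusted p = 0.506) was not distinguishable from 0. Between libraries with the same number the log2 difference was -1.59, -0.78 and 0.48. The gene for the remaining Cxcr3 ligand, *Cxcl11*, had 0 tags in the EGFP-negative libraries and 1, 1 and 0 in the EGFP-positive libraries, which is under the floor in both groups.

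*Cxcl12*, *Cxcl13*, *Cxcl14* and *Cxcl16* have homeostatic roles besides any in inflammation. Of these 4, 2 were called higher (3.44% of all tested genes), and DESeq2 called 1 higher. *Cxcl12*, whose product retains Cxcr4-bearing leukocytes and progenitors in tissues, had 1328, 1711 and 1368 tags in the EGFP-negative libraries and 1529, 2377 and 1780 tags in the EGFP-positive libraries. After scaling the groups just missed each other, with EGFP-negative replicate 2 at 1612 and EGFP-positive replicate 1 at 1621 normalized CPM. The log2 fold change was 0.52 (SE 0.195, adjusted p = 0.0850), and *Cxcl12* was not called. With the replicate block it was 0.51 (adjusted p = 0.00313) and with no filter on low counts 0.56 (adjusted p = 0.0230). Without EGFP-positive replicate 2 it was 0.32 (adjusted p = 0.398), so that the adjusted p depended on the setting while the fold change stayed under 2.

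*Cxcl13*, which encodes the B-cell attractant of lymphoid follicles that acts on Cxcr5, had 770, 679 and 414 tags in the EGFP-negative libraries and 1434, 1756 and 684 tags in the EGFP-positive libraries. Replicate 3 was the lowest library in both groups, and EGFP-positive replicate 3 (652 normalized CPM) lay below EGFP-negative replicate 1 (735). Between libraries with the same number the EGFP-positive library was higher each time, by 1.05, 1.48 and 0.94 on the log2 scale. Its mean level was 572 ± 206 normalized CPM in EGFP-negative and 1318 ± 592 in EGFP-positive cells (± SD, n = 3), and it rose by 1.21 on the log2 scale (SE 0.300) with an adjusted p of 0.00883. This call was lost with DESeq2 (1.22, adjusted p = 0.131), without EGFP-negative replicate 3 (0.92, adjusted p = 0.0475) and without EGFP-positive replicate 2 (0.94, adjusted p = 0.0698), where the adjusted p over all settings ranged from 3.9e-10 to 0.131.

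*Cxcl14*, a chemokine of epithelia and stroma, had 88, 50 and 56 tags in the EGFP-negative libraries and 174, 120 and 150 tags in the EGFP-positive libraries. Replicate 1 was the highest in both groups and the groups did not overlap. Its mean level was 59.0 ± 21.6 normalized CPM in EGFP-negative and 150 ± 31.8 in EGFP-positive cells (± SD, n = 3), and it rose by 1.35 on the log2 scale (SE 0.229) with an adjusted p of 0.000374.

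*Cxcl16*, which encodes a membrane-bound ligand of Cxcr6 that proteases can shed, had 50, 47 and 44 tags in the EGFP-negative libraries and 73, 76 and 67 tags in the EGFP-positive libraries. Both groups were tight and did not overlap, although the difference was small. The log2 fold change was 0.77 (SE 0.204, adjusted p = 0.0137; 0.0734 without EGFP-negative replicate 3), under the fold threshold, and *Cxcl16* was not called.

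Tags from the 5′ side of transcripts need not scale with transcript length, so that levels of different genes are given both per kb and without length. Which order is closer to the transcript levels was not tested. Per kb of the longest transcript, the order in the EGFP-positive group was *Cxcl1* (2500 ± 237 normalized CPM per kb), *Cxcl13* (1146 ± 514), *Cxcl5* (872 ± 242), *Cxcl2* (538 ± 121), *Cxcl12* (340 ± 77.7), *Cxcl14* (82.0 ± 17.4), *Cxcl10* (68.0 ± 26.4), *Cxcl3* (60.6 ± 28.6), *Cxcl16* (27.0 ± 2.86) and *Cxcl9* (2.55 ± 1.80). *Cxcl13* and *Cxcl5* were within 1 SD of each other there, and so were *Cxcl14*, *Cxcl10* and *Cxcl3*. In the EGFP-negative group *Cxcl1* was again rank 1 (1612 ± 351 per kb) and *Cxcl9* rank 10 (4.18 ± 3.29 per kb), but *Cxcl10* stood at rank 4 (127 ± 49.6) and *Cxcl5* at rank 6 (80.7 ± 12.1), within 1 SD of *Cxcl10*. By level without length, the order in the EGFP-positive group was *Cxcl1*, *Cxcl12*, *Cxcl5*, *Cxcl13*, *Cxcl2*, *Cxcl14*, *Cxcl10*, *Cxcl16*, *Cxcl3* and *Cxcl9*, where *Cxcl12* with its long transcript of 5627 bases moved from rank 5 to rank 2, and *Cxcl1* and *Cxcl9* kept ranks 1 and 10 in both groups.

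The genes whose profiles over the 6 libraries lay closest to each member were sought among the 5063 tested genes that averaged 30 tags or more, by the root mean square (RMS) difference of centred log2 levels. *Cxcl1* was closest to *Fstl1* (RMS 0.049) and *Lsm14b* (0.057), and *Cxcl12* to *Tmem176a* (0.082) and *Scube1* (0.088). The profile of *Cxcl2* lay nearest to *Hgf* (0.298) and *Ereg* (0.300), which encode growth factors for epithelium. For *Cxcl3* they were the immediate early gene *Ier3* (0.312) and *Hs3st1* (0.360), which encodes a heparan sulfate sulfotransferase, and for *Cxcl5* they were *Ces1f* (0.277) and *Igfbp5* (0.299). *Cxcl10* (0.186) and *Cxcl9* (0.455) shared *Adamdec1*, which encodes a secreted metalloprotease of the intestine, with *Plac9b* (0.126) closer to *Cxcl10* and *Mdk* (0.476) further from *Cxcl9*. *Cxcl13* was nearest to *Epas1* (0.215) and *Creb3l1* (0.241), *Cxcl14* to *Abcc1* (0.122) and *Btg3* (0.165), and *Cxcl16* to *Sestd1* (0.089) and *Pitpnc1* (0.091).

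Of the 10 members, 7 lie on chromosome 5, in the GRCm38 build. The ELR-positive genes stand together on the plus strand in the order *Cxcl5* (chr5:90759360-90761624), *Cxcl3* (chr5:90786103-90789600), *Cxcl1* (chr5:90891241-90893115) and *Cxcl2* (chr5:90903871-90905938). *Cxcl9* (chr5:92321347-92328079) and *Cxcl10* (chr5:92346638-92348889) follow on the minus strand, and *Cxcl13* (chr5:95956951-95961068) on the plus strand. The other members are apart, with *Cxcl12* at chr6:117168535-117181367 on the plus strand, *Cxcl14* at chr13:56288643-56296551 on the minus strand and *Cxcl16* at chr11:70453983-70459984 on the minus strand.

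The genes around both clusters were listed. The stretch from 500 kb before *Cxcl5* to 500 kb after *Cxcl2* holds 19 protein-coding genes, 9 of which were tested. Of these, 6 were called higher (3.44% of all tested genes) and 0 lower (6.37%), and 3 of the 6 are members. The stretch was drawn around the members, and of its 5 other tested genes 3 were called higher and 0 lower. The 3 that are not chemokines encode ligands of the EGF receptor family. *Ereg* (chr5:91074622-91093646) rose from 1095 ± 51.2 to 5580 ± 643 normalized CPM (± SD, n = 3; log2 fold change 2.35, SE 0.180), *Areg* (chr5:91139599-91148432) from 25.2 ± 10.3 to 96.7 ± 38.5 (1.94, SE 0.300) and *Btc* (chr5:91357261-91402994) from 10.6 ± 6.70 to 106 ± 11.7 (3.32, SE 0.296). Between them and *Cxcl2*, *Mthfd2l*, which encodes a mitochondrial folate enzyme, was not called (0.82, SE 0.395, adjusted p = 0.190). *Cxcl1* thus lies between called genes on both sides while it was under the fold threshold itself. *Pf4* and *Cxcl15*, chemokine genes in the same stretch, had 0 to 4 tags and were not tested.

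Around *Cxcl9* and *Cxcl10*, 500 kb on either side, 11 of 18 protein-coding genes were tested. Of these, 0 were called higher (3.44% of all tested genes) and 2 lower (6.37%). These were *Art3* (log2 fold change -1.90, SE 0.382; -2.88 without EGFP-positive replicate 3) and *Stbd1* (-1.76, SE 0.452), whose call was lost without EGFP-positive replicate 1 (-1.52). *Stbd1* had 25, 18 and 14 tags in the EGFP-negative libraries and 3, 7 and 5 in the EGFP-positive libraries, so that it passed the filter through the EGFP-negative group only and was not tested without any of those libraries or among genes with at least 10 tags in all 6. *Uso1* was higher with a fold change under 2 (0.71, SE 0.202, adjusted p = 0.0205; 0.123 without EGFP-negative replicate 2). *Art3* (chr5:92331827-92414628, plus strand) spans *Cxcl10* on the opposite strand, and tags were mapped in 1 orientation to transcript sequences. The windows and the genes named from them were chosen after their values were seen.

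**Figure D2:**
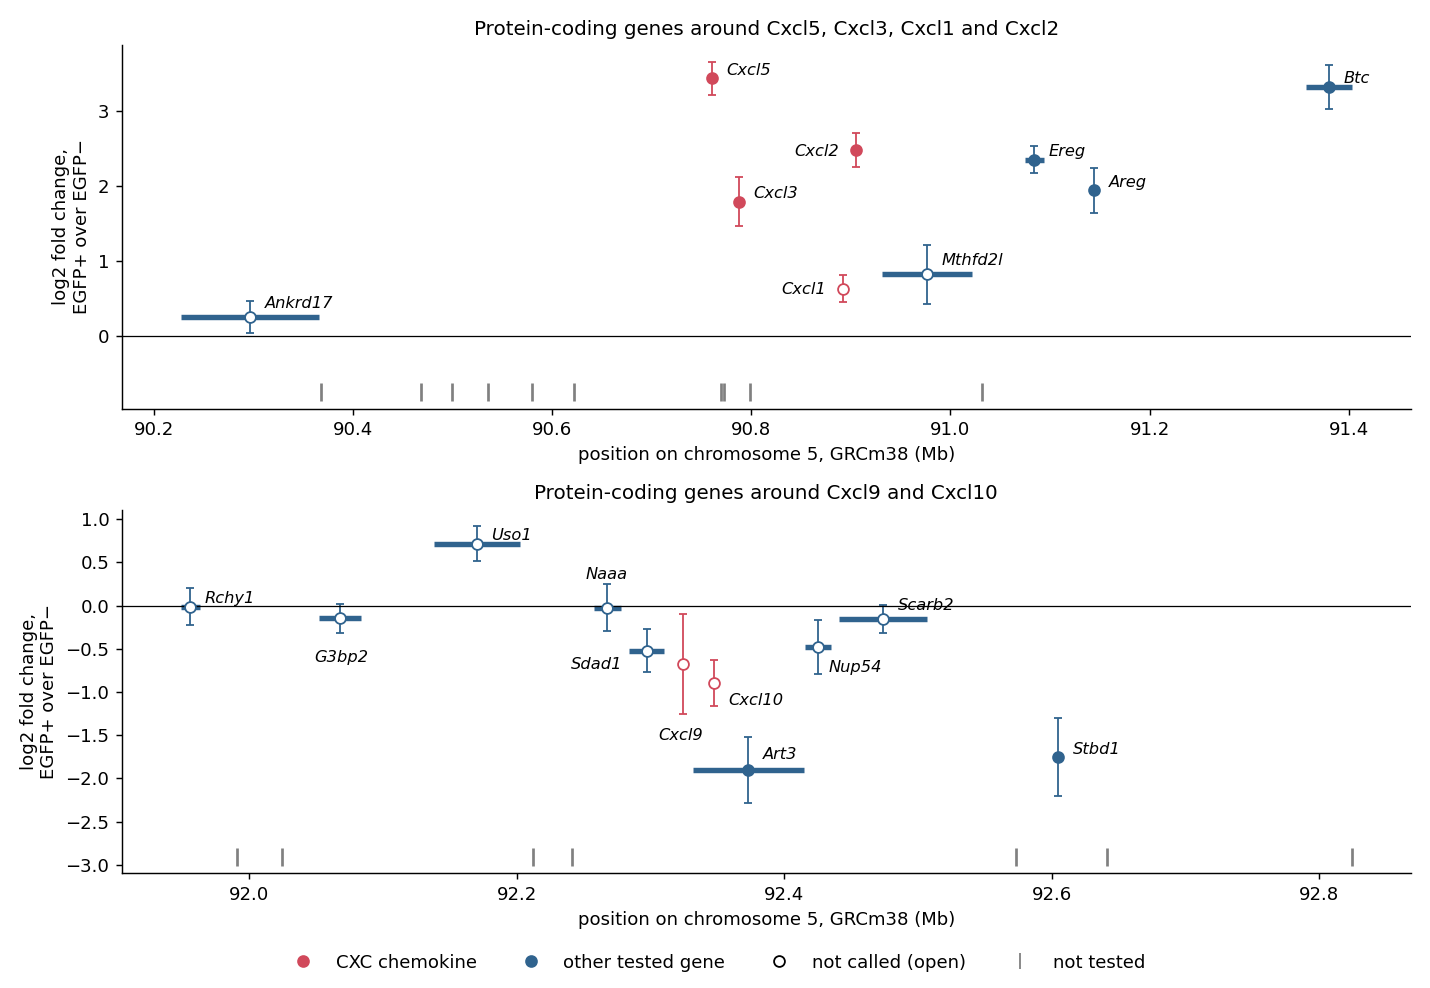
Log2 fold changes (EGFP-positive over EGFP-negative, vertical axis, bars are SE) of tested protein-coding genes against their position on chromosome 5 in GRCm38 (Mb) within 500 kb of the ELR-positive genes (top) and of *Cxcl9* and *Cxcl10* (bottom); horizontal bars span each gene, filled points are called genes, and ticks are genes that were not tested. In the top panel 6 of 9 tested genes are called higher, and in the bottom panel 0 of 11 are called higher and 2 lower. Over all tested genes 3.44% were called higher and 6.37% lower. The top window was drawn around members, and 3 of its 5 other tested genes are called higher.

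Because *Cxcl2* and *Cxcl3* were called higher and *Cxcl1* and *Cxcl10* were not, their promoters are printed to show what they share in sequence. RefSeq promoters (GRCm38.p6), from 250 bases before to 50 after the start, were found for 8 of 10 members, all but *Cxcl5* and *Cxcl16*. NF-κB is a transcription factor activated by IL-1, TNF and Toll-like receptors, and its κB consensus was matched on both strands in 4 of 8 of these promoters and in 8.46% of all 32851 promoters in the table. In *Cxcl1* (bases -71 to -62 from the start), *Cxcl2* (-97 to -88) and *Cxcl3* (-73 to -64) the match was the same GGGAATTTCC, each time overlapping a match on the other strand that was shifted by 1 base. *Cxcl10* had matches at -159 to -150 and, overlapping on both strands, at -104 to -95 and -103 to -94. The 160 bases before each start are given with the κB matches in capitals and all else in lower case, 5′ to 3′ along the gene.
Cxcl1: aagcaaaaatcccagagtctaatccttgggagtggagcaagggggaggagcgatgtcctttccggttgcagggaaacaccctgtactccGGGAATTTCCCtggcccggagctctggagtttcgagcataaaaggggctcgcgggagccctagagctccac
Cxcl2: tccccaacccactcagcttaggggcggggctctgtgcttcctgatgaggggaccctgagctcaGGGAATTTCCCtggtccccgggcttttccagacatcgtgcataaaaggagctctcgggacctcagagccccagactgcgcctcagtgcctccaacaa
Cxcl3: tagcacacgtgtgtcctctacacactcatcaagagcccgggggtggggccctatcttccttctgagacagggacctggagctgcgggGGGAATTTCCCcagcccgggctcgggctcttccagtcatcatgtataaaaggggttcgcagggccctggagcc
Cxcl10: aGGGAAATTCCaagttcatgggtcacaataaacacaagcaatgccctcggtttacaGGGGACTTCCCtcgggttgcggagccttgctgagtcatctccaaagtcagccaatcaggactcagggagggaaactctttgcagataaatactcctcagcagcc
They stand at chr5:90891085-90891244 (plus strand; the GENCODE gene starts at 90891241 within it), chr5:90903739-90903898 (plus strand; the GENCODE gene starts at 90903871 within it), chr5:90785941-90786100 (plus strand) and chr5:92348890-92349049 (minus strand) in that order. The called *Cxcl2* and *Cxcl3* and the uncalled *Cxcl1* thus hold the same 10 bases.

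Other motifs were less shared. The interferon-stimulated response element, searched as GAAA and a second GAAA with any 2 bases between them, was found in *Cxcl10* (-213 to -204) and *Cxcl14* (-172 to -163), and in 3.44% of all promoters. A STAT site, TTCNNNGAA, was found in *Cxcl14* (-191 to -183), and in 8.30% of all promoters. The AP-1 site TGANTCA was found in *Cxcl10* (-74 to -68) and, after the start, in *Cxcl9*, and in 7.81% of all promoters, and TATAAA in *Cxcl3*, *Cxcl9* and *Cxcl13*, and in 13.6% of all promoters. None of these matches overlapped a κB match in the members. A match is a description of letters in these windows, and binding was not measured.

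The listed CXC and atypical chemokine receptors, which were not chosen as receptors of the members alone, were mostly near the floor. Of 10 listed CXC and atypical receptors 7 had a row and 3 were tested, of which 0 were called higher (3.44% of all tested genes) and 1 lower (6.37%), with 0 higher (12.2%) and 2 lower (14.5%) at an unadjusted p under 0.05 and 0 higher or lower by DESeq2. *Ackr4*, whose product scavenges chemokines, had 330, 297 and 101 tags in the EGFP-negative libraries and 92, 81 and 41 tags in the EGFP-positive libraries. Replicate 3 was the lowest in both groups, as for *Cxcl13*, and EGFP-negative replicate 3 lay below EGFP-positive replicate 1, so that the groups overlapped. Its log2 fold change was -1.63 (SE 0.366, adjusted p = 0.00418), and the call was lost with DESeq2 (-1.62, adjusted p = 0.101, where all settings ranged from 1.19e-13 to 0.101).

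*Ackr3*, whose product scavenges Cxcl12, had 158, 200 and 280 tags in the EGFP-negative libraries and 88, 89 and 144 tags in the EGFP-positive libraries. The EGFP-positive libraries were all below the EGFP-negative libraries. Its log2 fold change of -0.83 (SE 0.201, adjusted p = 0.00770; 0.0585 without EGFP-positive replicate 2) was under the fold threshold, and it was called lower without EGFP-positive replicate 3 (-1.05). *Cxcr2*, the receptor gene for the ELR-positive ligands, had 14 to 23 tags in each library, with a log2 difference of 0.28 (SE 0.313) at an adjusted p of 0.619. *Cxcr3* and *Cxcr6* had 1 tag each in all libraries together, and *Cxcr1*, *Cxcr4* and *Cxcr5* were not analysed here. *Ackr1* and *Ackr2* had 0 to 5 tags.

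Of 24 genes listed as inputs to NF-κB, the factor behind many inflammatory chemokine genes, 23 were tested. Besides receptors and adaptors, the list holds NF-κB subunits, feedback inhibitors and *Zfp36*, so that its counts and median mix genes of opposite roles. In it 1 was called higher (3.44% of all tested genes) and 1 lower (6.37%), with a median log2 fold change of 0.10, against -0.01 over all tested genes. *Il1r1*, the IL-1 receptor gene, had a mean level of 231 ± 6.81 normalized CPM in EGFP-negative and 515 ± 28.7 in EGFP-positive cells (± SD, n = 3), and rose by 1.15 on the log2 scale (SE 0.158) with an adjusted p of 3.95e-05. *Zfp36*, which encodes tristetraprolin, a protein that speeds the decay of AU-rich mRNAs, fell from 3729 ± 104 to 1663 ± 260 (log2 fold change -1.17, SE 0.177, adjusted p = 0.000119). Among the subunit genes, *Nfkb1*, *Nfkb2*, *Rel*, *Rela* and *Relb* had log2 fold changes between -0.38 (*Rela*) and 0.48 (*Rel*), and none was called.

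Among the feedback inhibitors of NF-κB, *Nfkbia* and *Tnfaip3* had an adjusted p under 0.05 with a fold change under 2. *Nfkbia* went from 1255 ± 279 to 2082 ± 253 normalized CPM (log2 fold change 0.73, SE 0.189, adjusted p = 0.0116; 0.0599 without EGFP-negative replicate 3). *Tnfaip3* went from 241 ± 27.6 to 479 ± 81.0 (0.99, SE 0.176, adjusted p = 0.000596), and since this lies at the fold threshold it was called higher with RLE scaling, with DESeq2, with no filter (1.03), and without EGFP-negative replicate 1 (1.03), EGFP-negative replicate 2 (1.01) or EGFP-positive replicate 3 (1.13). *Myd88*, the adaptor gene of IL-1 and Toll-like receptors, had a log2 difference of -0.95 (SE 0.174) at an adjusted p of 0.000744 and was called lower with scaling by library size only (-1.03).

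The interferon response list, the counterpart of *Cxcl9* and *Cxcl10*, had a median log2 fold change of -0.31 over 14 tested genes of 15 listed. By edgeR 0 were called higher (3.44% of all tested genes) and 0 lower (6.37%), at an unadjusted p under 0.05 there were 1 higher (12.2% of all tested genes) and 6 lower (14.5%), and DESeq2 called 0. *Irf9* (-0.98, SE 0.258, adjusted p = 0.0128), *Gbp2* (-0.77, SE 0.211, adjusted p = 0.0165) and *Stat2* (-0.76, SE 0.243, adjusted p = 0.0404) had an adjusted p under 0.05 with a fold change under 2, and this p rose with a library left out to as much as 0.0573, 0.0898 and 0.166. The receptor genes *Ifngr1*, *Ifngr2*, *Ifnar1* and *Ifnar2* had log2 fold changes between -0.06 (*Ifnar2*) and 0.38 (*Ifnar1*). Leaving out 1 library gave 1 gene called lower (without EGFP-negative replicate 2 or EGFP-positive replicate 3) or 2 (without EGFP-negative replicate 1 or EGFP-positive replicate 2), and 1 called higher without EGFP-positive replicate 3. There was also 1 called lower with scaling by library size only (*Irf9*, -1.06), with no filter on low counts, and among genes with at least 10 tags in all 6 libraries (*Irf9*, -1.02).

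Of 13 listed genes for the processing and retention of chemokines 11 were tested, with 2 called higher (3.44% of all tested genes), 0 called lower (6.37%), 9 called neither and a median log2 fold change of 0.59. At an unadjusted p under 0.05 edgeR gave 8 higher (12.2% of all tested genes) and 0 lower (14.5%), and DESeq2 called 2 higher and 0 lower. With no filter on low counts 1 gene of the list was called lower. *Sdc1*, which encodes syndecan-1, a heparan sulfate proteoglycan that holds chemokines at the cell surface, had 216, 217 and 82 tags in the EGFP-negative libraries and 1008, 971 and 583 tags in the EGFP-positive libraries. Replicate 3 was the lowest in both groups and the groups did not overlap. Its log2 fold change was 2.45 (SE 0.317, adjusted p = 2.07e-05).

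*Mmp2*, which encodes a gelatinase that can cleave Cxcl12, had a mean level of 926 ± 137 normalized CPM in EGFP-negative and 2382 ± 273 in EGFP-positive cells (± SD, n = 3), and rose by 1.36 on the log2 scale (SE 0.178) with an adjusted p of 2.33e-05. *Mmp14* (0.91, SE 0.187, adjusted p = 0.00195), *Adam17* (0.65, SE 0.202, adjusted p = 0.0340), *Sdc4* (0.64, SE 0.199, adjusted p = 0.0335) and *Ndst1* (0.59, SE 0.176, adjusted p = 0.0268) had an adjusted p under 0.05 with a fold change under 2. With a library left out this p rose to as much as 0.182 for *Adam17*, 0.141 for *Sdc4* and 0.129 for *Ndst1*, and with DESeq2 it was 0.0956 for *Adam17* and 0.0776 for *Ndst1*. *Adam10*, the gene for the main sheddase of Cxcl16, was not called (0.35, SE 0.164, adjusted p = 0.176). *Dpp4*, whose product trims the N terminus of Cxcl10 and Cxcl12, had 10, 7 and 25 tags in the EGFP-negative libraries and 3, 1 and 4 in the EGFP-positive libraries and did not pass the filter, and *Mmp9* had 0 to 2 tags.

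**Figure D3:**
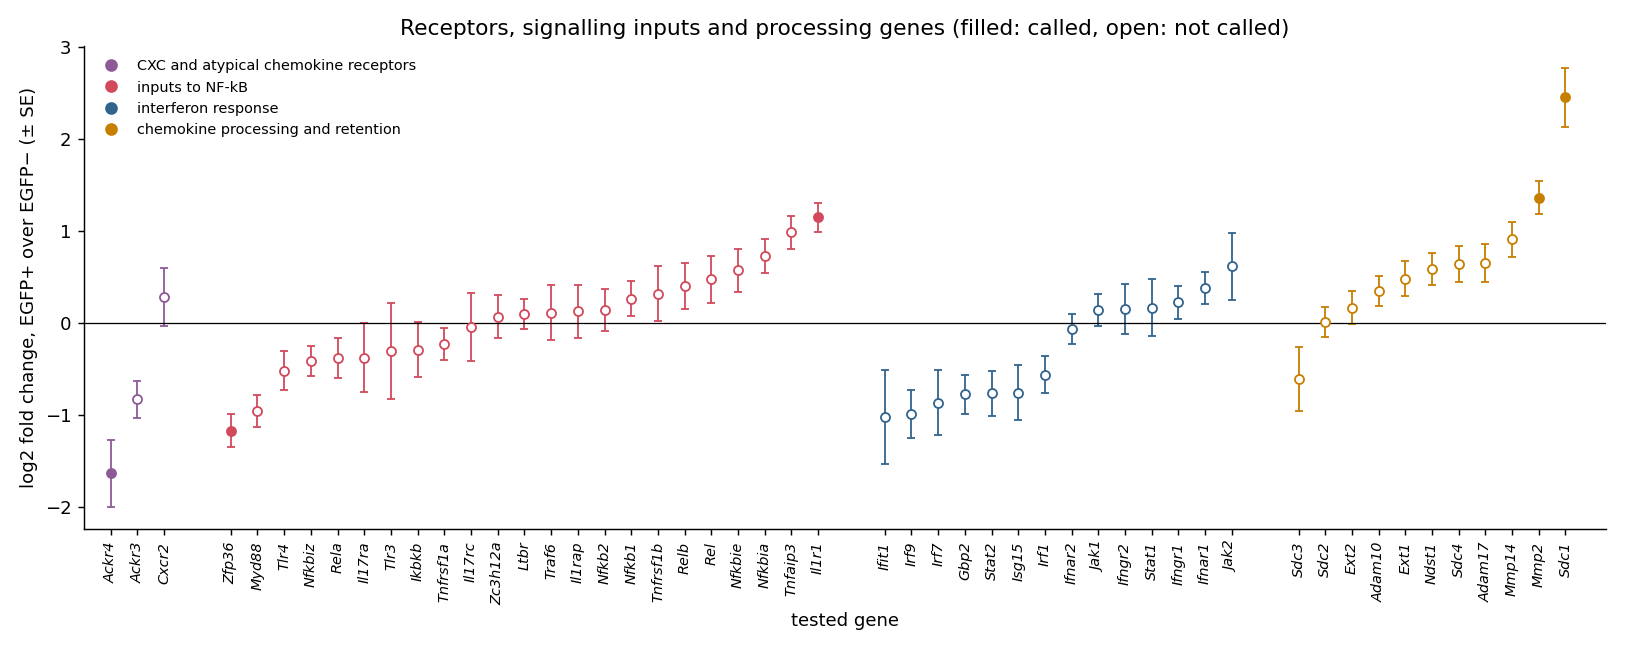
Log2 fold change (EGFP-positive over EGFP-negative, vertical axis, bars are SE) of each tested gene of the receptor, NF-κB, interferon and processing lists, ordered by value within each list; filled points are called genes. The filled points are *Ackr4* and *Zfp36* below 0 and *Il1r1*, *Mmp2* and *Sdc1* above it.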

How the data were processed

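The authors trimmed reads with Cutadapt 1.18 and mapped them in 1 orientation to RefSeq mm10 transcripts with Bowtie2 2.2.5, and deposited tag counts per gene symbol without normalization. From these counts, edgeR 4.0.16 in R 4.3.3 (TMM, glmQLFit and glmQLFTest, group only) compared 3 EGFP-positive with 3 EGFP-negative libraries over all 9334 tested genes. Library sizes were the tags of tested genes. The procedure was run on simulated counts with 4-fold changes, the same dispersion for every gene and no effect shared between same-numbered libraries. It recovered 183 of 187 changed genes that were tested, with 6 false calls. Real libraries differ from this setting, so that the simulation checks the procedure and not the calls reported here. Same-numbered libraries deviated together from their group means (r = 0.23, 0.185 and 0.261 across 5063 genes, which are not independent replicates). The labels state no pairing, and whether the numbers pair libraries by mouse was not tested. A replicate block was therefore an alternative only. Others were RLE, library size only, iterative TMM, DESeq2 1.42.0, other filters, each library left out, and adjusted p alone. Named genes are the members, *Il11*, genes of the lists, and the 2 nearest profiles per member. *Mthfd2l*, *Ereg*, *Areg*, *Btc*, *Art3*, *Stbd1* and *Uso1* were named as neighbours after their values were seen. The members and lists were chosen with earlier results of these data known. A further planned marker list is not reported here. Positions and transcripts are from GENCODE mouse release 21 and promoters from RefSeq. The scripts used Python 3.11.15 with pandas 2.3.3 and matplotlib 3.10.9.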

Additional observations from a re-analysis of the deposited data

How the results depend on the processing

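The members kept the sign of their log2 fold change in every alternative that tested them, and *Cxcl2*, *Cxcl3*, *Cxcl5* and *Cxcl14* were called higher in each. The number of members called higher ranged from 4 to 7 (adjusted p alone), and from 4 to 5 with a library left out. The number called lower was 0 to 1 with a library left out and 1 with the adjusted p alone, in each case *Cxcl10*. Over all genes, 638 were higher with the adjusted p alone, and 256 were lower among genes with at least 10 tags in all 6 libraries and 341 to 579 with a library left out, where fewer genes were tested. With the replicate block 337 genes were higher and 648 lower, and for the members, 5 higher and 0 lower, it changed no call. *Cxcl9* was not tested in 4 settings. *Mdk*, not called, ranged from -0.60 (without EGFP-positive replicate 2) to 0.060 (without EGFP-positive replicate 1, where its sign changed) on the log2 scale, and the cause was not tested. *Cxcl9*, *Cxcl11* and most receptors had few tags, and the part of depth in their results was not tested.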
